A study of Homo sapiens with 26 samples.

Results

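The genes described here encode the proteins of the cytosolic ribosome. They were taken from the gene rows of the 2 input RNA libraries by symbol: Rps or Rpl with a number, with the endings a, a1 or x where present, and Rpsa, Rplp0, Rplp1 and Rplp2. The rule found 77 of 55353 rows, 31 of the small (40S) subunit and 46 of the large (60S) subunit. Of these, 61 had at least 50 counts over both libraries (24 small, 37 large) and are called measured below. The other 16 had fewer, and 3 of those had 0. Per the labels, both libraries come from SK-MEL-28, an established human melanoma cell line, grown either untreated (control) or in salubrinal for 72 h, with 1 input library each. Salubrinal blocks the phosphatases that remove phosphate from the translation factor eIF2α and so turns on the integrated stress response (ISR). The design sets input RNA beside RNA of ribosome fractions, with and without ISR activation. It has 24 gradient fraction files, 3 for each of the 40S, 60S, 80S and polysome fractions and each treatment. All cells received cycloheximide at 100 µg/mL for 12 min before lysis, and the labels name no genetic change. The cell-line field of the labels carries a different number for each sample, so cells were named from the titles, which all give SK-MEL-28.

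A ribosome holds a single copy of nearly every ribosomal protein, and the cell makes the proteins of both subunits in matched amounts. Their mRNAs are among the most abundant in growing cells. Most begin with a 5′ terminal oligopyrimidine tract (5′ TOP), a C followed by a run of pyrimidines, through which LARP1 and the growth-signal kinase mTOR control their translation. Phosphorylated eIF2α lowers initiation on most mRNAs, those of ribosomal proteins included.

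The salubrinal input held 145107865 counts and the control input 203322430, with 10245548 and 12068784 of them on rows that name a gene. Counts on CT010467.1 alone made up 12.8% of those on gene rows in the salubrinal library and 56.7% in the control library. Levels are therefore CPM (counts relative to library size) scaled by trimmed means (TMM), and a log2 ratio is salubrinal over control on that scale, with the median of all measured rows at 0.02. Row names in both input files are mouse-style symbols although the cells are human, and the sources used here do not name the reference behind them, so a low count on a row need not mean little mRNA. That the input reads are human rests on the labels alone, and so does every comparison below with features of the human genes. Of 8 melanoma markers 6 were measured, while Mlana had 0 counts and Tyrp1 had 0 and 5. The summed level was 1396 CPM with salubrinal and 2771 without, of which Pmel alone made up 953 and 1928. Dct, Sox10 and Mitf were also lower with salubrinal, while Tyr (-0.04, interval -0.16 to 0.08) and S100b (0.15) were not. Marker lists of keratinocytes, fibroblasts, immune and endothelial cells summed to between 0.423 and 5.74 CPM. With 1 library per treatment there was no test, and every 95% interval below is an exact binomial one that covers counting error only. In bulk RNA, fewer cells and less RNA per cell cannot be told apart.

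The start sites of the human genes show the feature that the family shares. RefSeq promoter windows on GRCh38.p14 were found for 62 of the 77 genes, 77 windows in all. A C at the annotated start followed by at least 4 pyrimidines (C or T, read on the gene's own strand) was present in 46 of these windows (59.7%), and in 4.07% of the 35116 windows of all genes. The windows below run from 15 bases before the start to 15 bases from it on, 5′ to 3′, and capitals mark the tract that begins at the start. Shown first are 3 genes among the highest input ratios, then 3 among the lowest, then the kinase substrate RPS6 and the stalk protein RPLP2, and last 4 genes without a tract at the annotated start.
RPS27 (chr1:153990747-153990776, plus strand): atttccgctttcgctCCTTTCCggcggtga
RPS13 (chr11:17077653-17077682, minus strand): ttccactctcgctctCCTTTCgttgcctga
RPL34 (chr4:108620561-108620590, plus strand): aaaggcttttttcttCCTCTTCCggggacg
RPS21 (chr20:62387088-62387117, plus strand): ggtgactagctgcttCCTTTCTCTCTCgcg
RPL28 (chr19:55385917-55385946, plus strand): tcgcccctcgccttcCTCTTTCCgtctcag
RPL31 (chr2:101002274-101002303, plus strand): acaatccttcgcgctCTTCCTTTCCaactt
RPS6 (chr9:19380222-19380251, minus strand): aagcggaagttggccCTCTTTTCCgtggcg
RPLP2 (chr11:809952-809981, plus strand): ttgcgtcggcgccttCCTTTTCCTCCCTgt
RPL9 (chr4:39458908-39458937, minus strand): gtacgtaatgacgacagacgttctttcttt
RPS15 (chr19:1438381-1438410, plus strand): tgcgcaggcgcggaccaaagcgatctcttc
RPS4X (chrX:72277234-72277263, minus strand): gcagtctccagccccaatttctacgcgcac
RPL4 (chr15:66504841-66504870, minus strand): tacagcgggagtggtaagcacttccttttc
Genes with and without a tract at the start stand at both ends of the order of input ratios. A window without the tract says only that these letters are not at the annotated start.

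Most ribosomal protein genes of both subunits had a higher level in the input library with salubrinal. The median log2 ratio of the 61 measured members was 0.36, and they ran from -0.69 to 0.96. Above 0 stood 46 members (75.4%; 52% of all 10614 measured rows did). A log2 ratio of at least 0.32 was reached by 34 members, 55.7% against 24.6% of all rows. A ratio of -0.32 or less was found in 5 members, 8.2% against 23.7% of all rows. Higher by 1.5-fold or more were 17 (11% of all rows), and lower by 1.5-fold or more 2 (12.1% of all rows). None reached 2-fold in either direction (2.75% and 3.8% of all rows). The counting interval lay above 0 for 41 members (25.1% of all rows), below 0 for 7 (23% of all rows) and across 0 for 13. The members are well counted, so they were also set beside other well-counted rows. Among rows of at least 1000 counts the 44 members had a median of 0.39 and all 2302 rows one of 0.08. Of these members 35 stood above 0 (79.5% against 59.6% of such rows), and 27 (61.4% against 25.5%) had a ratio of at least 0.32. Whether an interval clears 0 depends on depth. At this depth it lay above 0 for 33 members (75% against 44.6% of such rows) and below 0 for 5 (11.4% against 27.8%). Summed over all 77 rows the family held 137127 counts with salubrinal and 66120 without, a log2 ratio of 0.35 (0.33 to 0.36). Outside CT010467.1 and rows with mitochondrial, ribosomal RNA and small RNA names, this was 2.16% of counts with salubrinal and 1.78% without.

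**Figure D1:**
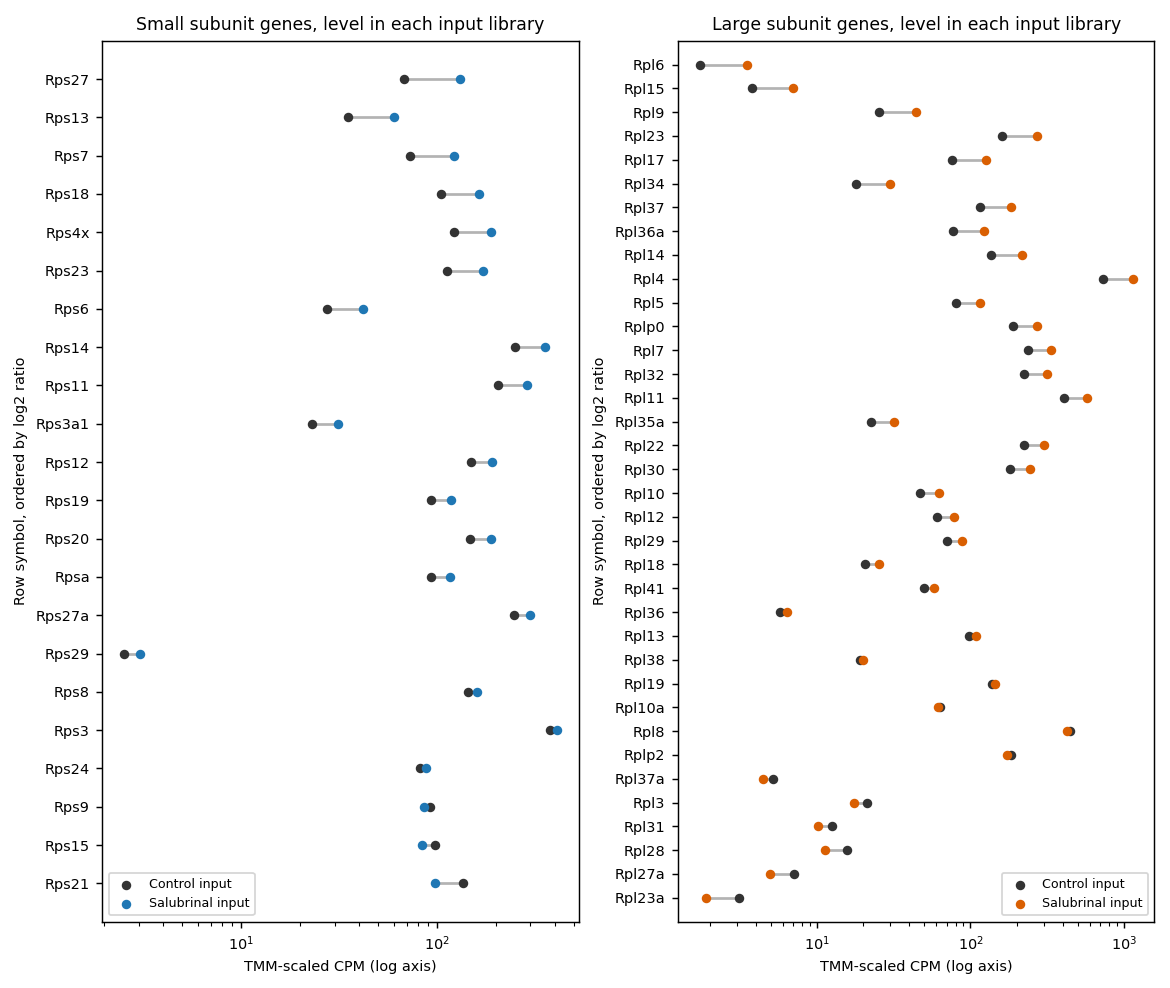
Level of 58 of the 61 measured ribosomal protein rows in the control input (black) and the salubrinal input (colour), in TMM-scaled CPM on a log axis, with small subunit genes on the left and large subunit genes on the right, ordered by log2 ratio. In 46 of the 58 rows the salubrinal point lies to the right of the control point; levels of different genes are not per length and are not compared.

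The small and large subunit genes did not separate. The 24 measured small subunit genes had a median log2 ratio of 0.35, from -0.47 for Rps21 to 0.96 for Rps27, and 19 stood above the median of all rows. The 37 large subunit genes had a median of 0.42, from -0.69 to 0.96, and 27 stood above the median of all rows. The top value, that of Rpl6, rests on 50 counts with salubrinal and 15 without (interval 0.18 to 1.97). The ranges of the subunits overlap over nearly their whole length. The middle of the distribution, from the lower to the upper quartile, ran from 0.11 to 0.61 in the small and from -0.05 to 0.65 in the large subunit. The medians differed by -0.07 (small minus large), while the means, 0.32 and 0.27, differed by 0.044 the other way. Summed counts gave a log2 ratio of 0.27 (0.25 to 0.29) for the small and 0.41 (0.39 to 0.42) for the large subunit, and 0.35 (0.33 to 0.37) for the large subunit without Rpl4, its row with the most counts. The small-over-large ratio of summed counts was 0.685 with salubrinal and 0.755 without. The small minus large difference changed sign between medians and means, and the median difference also did when rows down to 1 count were let in. For the sums it was -0.14, and -0.08 without Rpl4, and their intervals did not overlap. Sums weigh the rows with most counts, and the intervals cover counting error only. With measures that differ in sign and 1 library per treatment, no direction between the subunits is given.

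**Figure D2:**
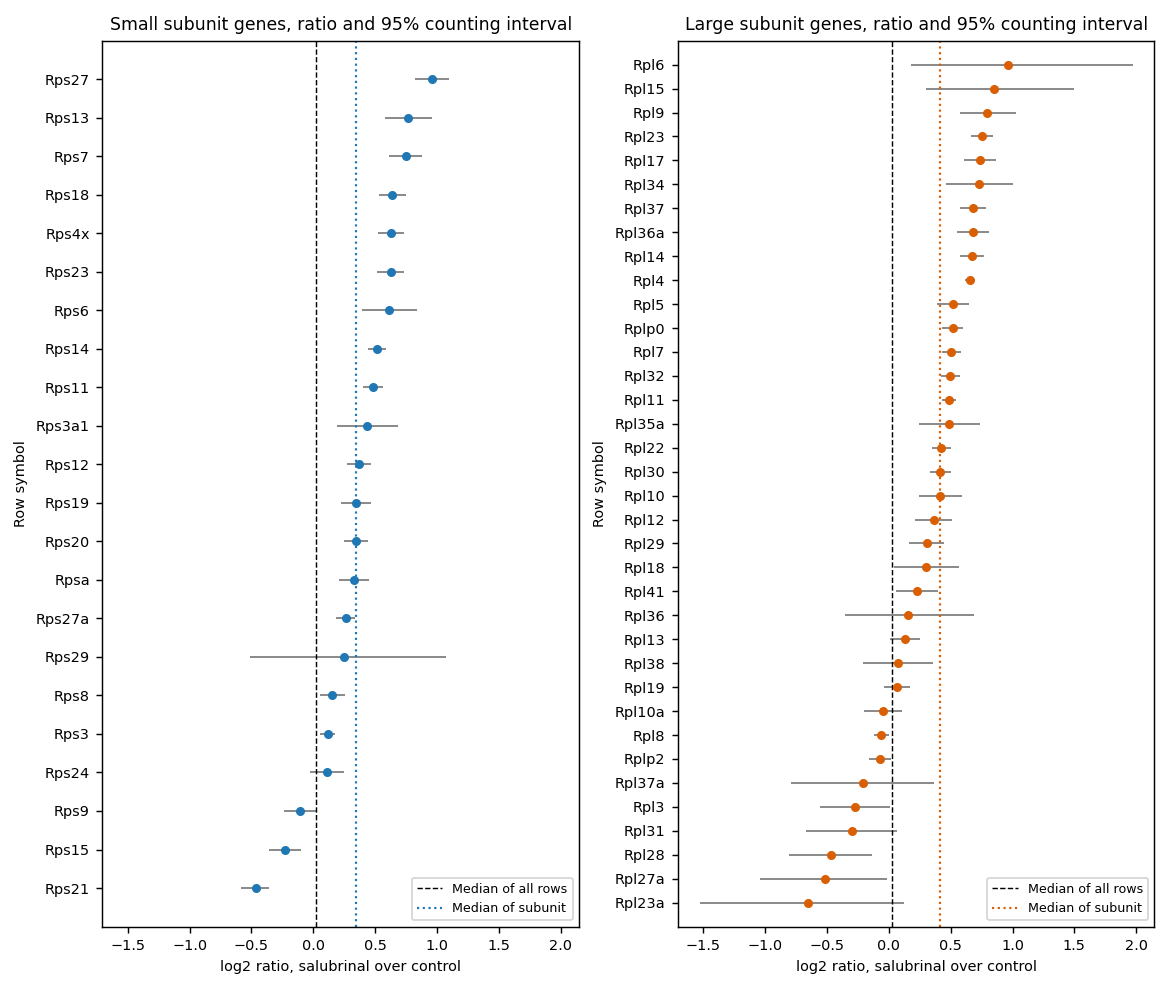
Log2 ratio of the same 58 rows, salubrinal over control, with its 95% counting interval, for small (left) and large (right) subunit genes. The dashed line is the median of all measured rows (0.02) and the dotted lines are the medians of all measured small (0.35) and large (0.42) subunit genes, whose points spread over the same range.

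Among members with at least 200 counts, the 8 highest ratios were split between the subunits, 3 small and 5 large. Rps27, which encodes a zinc-finger protein of the small subunit, had 1867 counts with salubrinal and 590 without, or 132 and 67.7 CPM, a log2 ratio of 0.96 (0.82 to 1.09). Rpl9 stood at 44.0 CPM with salubrinal and 25.3 without, a ratio of 0.80 (0.58 to 1.03). Rps13, part of a bridge to the large subunit, stood at 60.1 and 35.2 CPM (0.77). These 3 rows were each higher in the salubrinal library by more than their counting error. Rpl23, on the interface where the anti-association factor eIF6 docks, had 3874 and 1408 counts and a ratio of 0.75 (0.67 to 0.84). Rps7, a gene mutated in some patients with Diamond-Blackfan anaemia, a failure of red cell production, stood at 122 and 72.9 CPM (0.75). Rpl17, whose protein lines the tunnel through which the new peptide leaves, had a ratio of 0.73, Rpl34 one of 0.73 and Rpl37 one of 0.68. Rpl4, another protein of the tunnel wall, had the most counts of all members, 16177 and 6308, and a ratio of 0.65 (0.61 to 0.70).

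The 8 lowest ratios were also split, 4 and 4, and 5 of them are described here. Rps21 stood at 97.6 CPM with salubrinal and 135 without (a log2 ratio of -0.47, interval -0.58 to -0.35), and Rpl28 at 11.3 and 15.7 CPM (-0.47, interval -0.81 to -0.13). On this scale both were lower in the salubrinal library beyond counting error. When scaled by total gene-row counts, which moves all rows up by 0.93, they stood at 0.47 and 0.46, above 0 but below the median of all rows (0.95). Rpl31, which sits beside the tunnel exit, had a ratio of -0.30 (-0.67 to 0.07), and Rpl3, close to the site of peptide bond formation, one of -0.27 (-0.56 to 0.01), both with intervals that reach 0. Rps15, whose tail reaches the decoding site, stood at 83.7 and 97.9 CPM, a ratio of -0.23 (-0.36 to -0.10), or 0.71 when scaled by total counts.

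Members of a panel chosen by role had ratios from -0.27 (Rpl3, above) to 0.63 where measured. Rpsa, also known as the laminin receptor precursor, stood at 117 CPM with salubrinal and 93.1 without, a log2 ratio of 0.33. At the mRNA entry side, Rps3 stood at 411 and 379 CPM (0.11, interval 0.05 to 0.18), and Rps2 had 0 and 1 counts. Rps6, the classical substrate of S6 kinase below mTOR, stood at 41.8 and 27.3 CPM (0.61, interval 0.40 to 0.84). Of the P stalk, the flexible arm that recruits elongation factors, the base Rplp0 stood at 272 and 190 CPM (0.52, interval 0.43 to 0.60) and Rplp2 at 174 and 183 CPM (-0.07, interval -0.16 to 0.02), while their partner Rplp1 had only 24 and 17 counts. The intervals of Rplp0 and Rplp2 do not overlap. Rpl5 and Rpl11, which carry 5S ribosomal RNA and bind MDM2 when assembly fails, had ratios of 0.52 (0.39 to 0.65) and 0.49 (0.43 to 0.54), and these intervals overlap.

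Of the genes first linked to disorders of ribosome formation, Rps19 stood at 118 and 93.2 CPM (0.35, interval 0.22 to 0.47) and Rps14 at 357 and 250 CPM (0.52, interval 0.44 to 0.59). Rps27a, made as a fusion with ubiquitin, stood at 298 and 249 CPM (0.26, interval 0.19 to 0.34). Rpl38, required for patterning of the mouse skeleton, stood at 20.1 and 19.1 CPM (0.07, interval -0.21 to 0.36), and no difference was detectable at its depth. Rpl10, which is added last to the large subunit, had a ratio of 0.42, Rpl22 also 0.42, Rpl41, the smallest ribosomal protein, 0.23, and the X-linked Rps4x 0.63. The intervals of these 4 rows lay above 0. Rps25, Rps28 and Rpl13a had too few counts on their own rows, at 3 and 2, 3 and 4, and 0 and 0.

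The companions of the ribosome that the symbol rule leaves out were measured in the same way. Rack1, a scaffold protein on the head of the small subunit, stood at 2874 CPM with salubrinal and 2439 without (0.24, interval 0.21 to 0.26). Fau, whose product is processed to a small subunit protein, stood at 17.2 and 22.5 CPM (-0.39, interval -0.67 to -0.11). Of 8 paralogs with a row, 6 were measured, with ratios from -0.07 for Rpl7l1 to 0.56 for Rpl39l. Rpl22l1, which can replace Rpl22, stood at 8.45 and 5.74 CPM (0.54, interval 0.07 to 1.06), beside 0.42 for Rpl22 itself.

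Rows named as pseudogenes of Rps and Rpl genes, gene copies whose names end in -ps, also held many reads. There were 311 such rows, 308 of them named for a member and the others for genes outside the rule such as the paralog Rpl7l1, and 79 had at least 50 counts. Together they held 46386 counts with salubrinal and 21820 without, a log2 ratio of sums of 0.38 (0.36 to 0.41). The median of the 79 was 0.46, with 49 rows (62.0%) at 0.32 or more and 5 (6.33%) at -0.32 or less. For 29 of the 77 members the -ps rows held more counts than the member row. This was so for 12 of the 16 members under 50 counts. Rpl13a had 0 counts in both libraries and Rpl13a-ps1 had 672 with salubrinal and 464 without. Rps10 had 3 and 0 against 1125 and 732 on its -ps rows, Rpl27 had 11 and 10 against 1459 and 754, and Rpl26 had 7 and 4 against 1452 and 543. Rows named for pseudogenes of these members were thus well counted where the member rows were not, and which gene the reads came from was not tested.

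**Figure D3:**
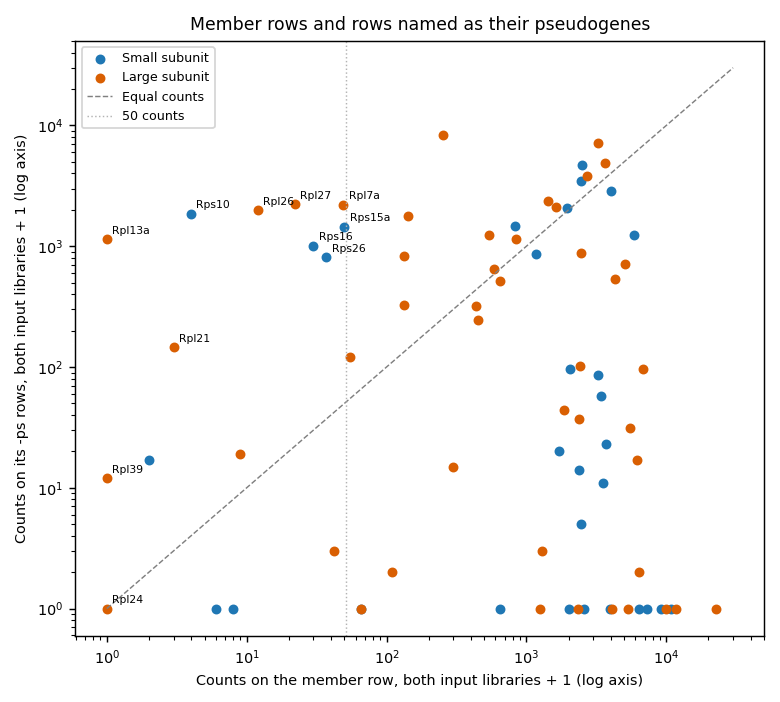
Counts on each member row (horizontal) and on the rows named as its pseudogenes (vertical), summed over both input libraries with 1 added, on log axes. Points above the dashed line, 29 of 77, had more counts on -ps rows; labels mark members with 0 counts and members under 50 counts whose -ps rows hold at least 50.

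The position of several low members depended on which row was read. In 31 members both the row and its -ps rows had at least 50 counts. Both stood above 0 in 21 and both below 0 in 1, Rps15. Most ratios of either kind stood above 0, so the 21 alone do not measure agreement. Across the 31, the ratios of row and -ps rows had a Pearson r of 0.24 and a Spearman rho of 0.32. In 6 members the row was below 0 and the -ps rows above it, among them Rpl23a, Rpl27a, Rpl31, Rpl3 and Rpl10a. Rpl10a had 876 counts with salubrinal and 555 without on its own row, a ratio of -0.05, and 1715 and 662 on its -ps rows, a ratio of 0.67. Rpl31 had 144 and 109 counts on its own row but 6088 and 2183 on its -ps rows, a ratio of 0.77. In 3 members, Rps19, Rps18 and Rpl36, the row was above 0 and the -ps rows below it, with -0.65 for the -ps rows of Rpl36 from 908 and 878 counts. Rps21 and Rpl8 have no -ps row in the files, and Rpl28 has 4 that held 9 and 5 counts. Summing each member with its -ps rows, a step chosen after the data were seen, gave 70 measured members with a median of 0.40, of which 55 stood above 0 and 15 below. Of the 9 members gained, Rpl21 was highest (0.84), followed by Rpl26 (0.71), Rps15a (0.51), Rpl7a (0.41), Rpl27 (0.24) and Rps16 (0.09), and Rps10 (-0.08), Rps26 (-0.11) and Rpl13a (-0.17) stood below 0. The 7 members still under 50 counts were Rpl24, with 0, and Rpl35, Rpl39, Rplp1, Rps2, Rps25 and Rps28.

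Features that the rule did not use were set beside the ratios. The 35 measured members with a tract at an annotated start had a median log2 ratio of 0.35 and the 13 with windows but no tract one of 0.63, with ranges that overlap from -0.27 to 0.96. Among all other measured rows the 513 with the tract had a median of 0.02 and the 6284 without it -0.02. The tract thus did not mark the members with higher ratios. Many ribosomal protein genes carry small nucleolar RNAs in their introns, and the 24 measured members with a snoRNA gene inside the human gene had a median of 0.36, against 0.35 for the 37 without.

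Among members, GC content of the human promoter window did go with the ratio, though not in even steps. Over 48 measured members with a promoter window, GC content of the window and log2 ratio had a Pearson r of -0.42 and a Spearman rho of -0.42, as a description across genes that share both libraries. The r was -0.11 over 6797 other rows. The 16 members with the highest GC, above 61.1%, had a median of 0.20, the 16 in the middle one of 0.56 and the 16 with the lowest, up to 56.3%, one of 0.49. The highest GC class had the lowest median. Human chromosome 19, which is rich in GC, showed lower ratios too: 9 measured members whose human gene lies there had a median of -0.11 and the 52 others 0.42, while among all other rows the 358 of chromosome 19 had a median of -0.43 and 7742 of other chromosomes 0.00134. In each GC class and on chromosome 19 the median of the members was above that of the other rows, which were at 0.07, 0.01 and -0.04 from low to high GC. Without chromosome 19 the small subunit median was 0.37 (19 genes) and the large subunit median 0.42 (33 genes). Transcript GC was not measured here, and the part of base composition in the order of members was not tested.

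**Figure D4:**
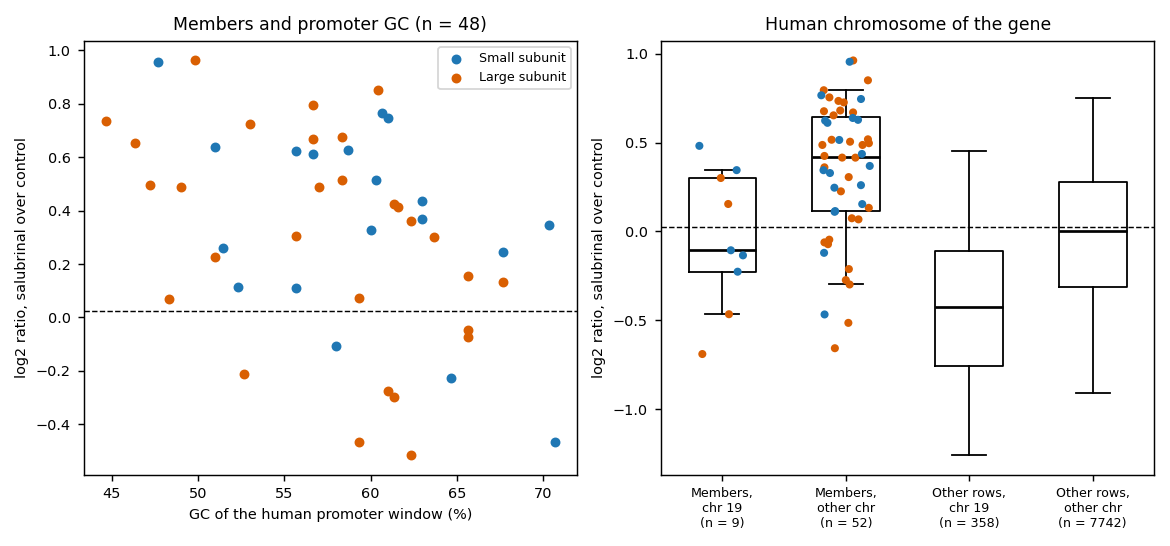
Left, log2 ratio of 48 measured members against the GC share of the human promoter window. Right, log2 ratios of members (points) and other rows by human chromosome, boxes with quartiles and whiskers at the 5th and 95th percentile; members of chromosome 19 have a median of -0.11 and other rows of chromosome 19 one of -0.43.

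Other parts of the translation machinery did not all share the members' position. The 16 measured 5′ TOP genes of translation outside the ribosome had a median log2 ratio of 0.30, with 7 (43.8%) at 0.32 or more and 0 at -0.32 or less. With Fau and Rack1, which belong to the small subunit, the list had 18 measured genes and a median of 0.27. Eef1a1, the elongation factor that brings aminoacyl-tRNA to the ribosome, was highest at 3641 CPM with salubrinal and 2037 without (0.84, interval 0.81 to 0.86). The growth-associated Tpt1 stood at 0.73 and the initiation factor subunits Eif3l and Eif3h at 0.52 and 0.51. Eef2, the translocation factor, stood at 684 and 813 CPM (-0.25, interval -0.29 to -0.20), and Pabpc1, which binds poly(A), at 0.0039.

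The 45 measured ribosome assembly genes had a median of 0.02, equal to that of all rows to 2 decimals, with 3 (6.67%) at 0.32 or more and 6 (13.3%) at -0.32 or less. The nucleolar protein Ncl stood at -0.14 (-0.20 to -0.09), Polr1a, the largest subunit of RNA polymerase I, at -0.50 (-0.64 to -0.37), Bop1, needed for large subunit maturation, at -1.11 (-1.32 to -0.91) and Myc, which drives ribosome production, at -0.42 (-0.55 to -0.29). Highest was Wdr75 at 0.36, followed by Ebna1bp2 (0.35) and Nmd3 (0.34). The named low genes do not stand for the list, in which 24 genes stood above 0 and 21 below. The other listed RNA polymerase I subunits, Polr1b, Polr1c and Polr1e, stood at 0.04, 0.15 and 0.17, with intervals across 0. The 61 measured mitochondrial ribosomal protein genes also centred on 0.02, with 13 (21.3%) and 16 (26.2%) past the same limits. Of all rows 24.6% stood at 0.32 or more and 23.7% at -0.32 or less. The mTOR list of 16 genes had a median of -0.10, with 5 genes (31.2%) and 4 genes (25%) past these limits, close to those shares. In it the mTOR inhibitors Sesn2 (2.19) and Ddit4 (1.26) were highest and the kinase Mtor and the tract-binding Larp1 both stood at -0.10. Other inhibitors in the list went both ways: Sesn3 (0.71), Castor1 (0.28) and Tsc1 (0.11) stood above 0, and Sesn1 (-0.30), Tsc2 (-0.32) and Castor2 (-1.03) below. The mTOR activator Rheb stood at 0.63 (0.46 to 0.80). Eif4ebp1, the translation repressor that mTOR inactivates, stood at 0.68 (0.35 to 1.03).

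**Figure D5:**
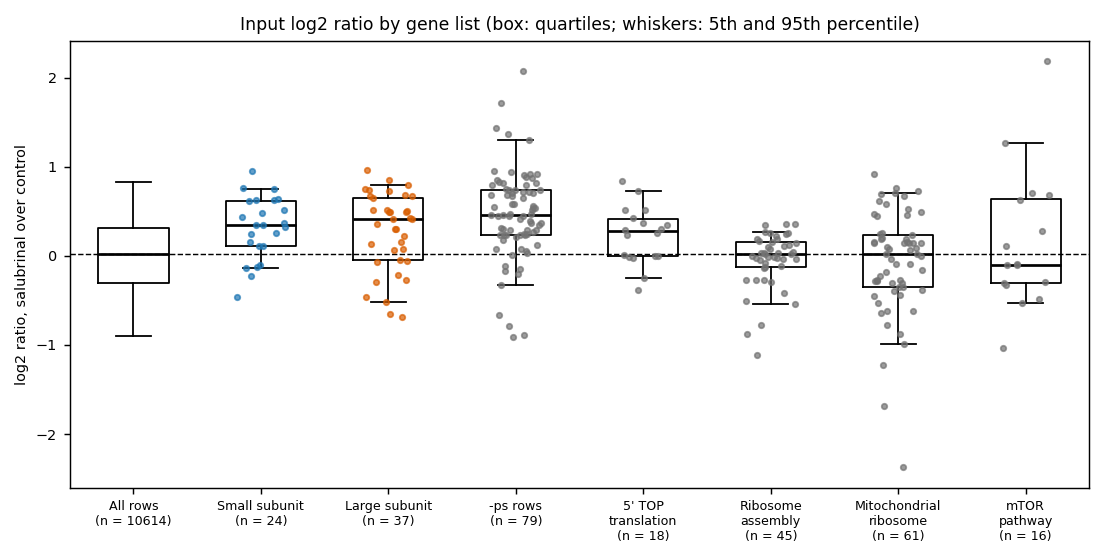
Log2 ratios in the input, salubrinal over control, for all measured rows and for gene lists, with boxes at the quartiles, whiskers at the 5th and 95th percentile and each listed row as a point. Small and large subunit genes and the -ps rows centre at 0.35, 0.42 and 0.46, the assembly and mitochondrial ribosome lists at 0.02; the 5′ TOP list is drawn with Fau and Rack1 (18 genes, 0.27).

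The gradient fractions held few reads on these genes, and tests on them had little power. Their files carry human symbols, and the same rule in capitals found 77 rows there, with 510 counts over all 24 files and 61 rows with any count. A file held between 0 and 45 such counts of 873 to 23714 outside ribosomal RNA. In the polysome files the salubrinal replicates 1 to 3 had 9, 2 and 33 counts on ribosomal protein rows and the control replicates 45, 6 and 41. As a share of counts outside ribosomal RNA this was 0.342%, 0.215% and 0.179% with salubrinal and 0.204%, 0.106% and 0.174% without. The groups overlap, with means of 0.245% ± 0.086 and 0.162% ± 0.050 (SD, n = 3). The share of salubrinal replicate 2 rests on 2 counts, under the 0.322% that 3 counts make in that file. The exact permutation test (two-sided, p = 0.2) could not pass 0.05, since with 3 against 3 the lowest p is 0.1, so it settles nothing. RPL10 had the most counts over the 24 files, 90, with 1 in the salubrinal and 16 in the control polysome files. No ribosomal protein row passed the low-count filter, so edgeR's quasi-likelihood test called 0 of 0, while it called 9 of 241 rows in all (3.73%). Without the filter 45 ribosomal protein rows were tested among 6044, and 0 of all 6044 rows (0%) passed in edgeR (smallest adjusted p of a ribosomal protein row 0.600). An unadjusted p under 0.05 was found in 153 rows, 3 of them ribosomal protein rows, so the 0 says nothing particular to these genes.

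The 60S, 80S and polysome files of a replicate number gave the same counts outside ribosomal RNA within sampling noise (chi-square per degree of freedom 1.01 to 1.13 in 6 sets, p from 0.103 to 0.429), against 1.74 and 8.09 between polysome replicates. The fractions are therefore not taken as independent measurements of these genes. In the 40S control files, replicates 1 and 2 held 5705 and 21295 counts outside ribosomal RNA, the reverse of the order in the 60S, 80S and polysome files, where replicate 2 held the fewer. At this depth no statement can be made on how much ribosomal protein mRNA the ribosomes held.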

How the data were processed

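The deposited files hold raw read counts per gene row, not normalized by the authors. The submitters' processing notes list HTSeq 0.5.3p3, SAMtools 0.1.19.24, DESeq, STAR and FastQC 0.11.5, and name hg19. The sources used here give neither the STAR version nor the strand setting. Per the labels' protocols, libraries came from a TruSeq stranded kit for total RNA, and lysates ran on sucrose gradients of 5 to 20%.

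Rows that name no gene were left out; gene rows held 7.06% (salubrinal) and 5.94% (control) of input counts and 4.72 to 5.79% in fraction files. Reads listed as not uniquely aligned (48.6% and 52.6% of input counts) add to no gene row, so rows with near-identical copies are uncertain. The inputs differed more in other classes that add to no gene row. Not aligned were 27.3% with salubrinal and 14.4% without, and ambiguous 3.54% and 9.50%. What these differences do to the input ratios was not tested. Log2 ratios used TMM factors of edgeR 4.0.16 in R 4.3.3 (1.39 and 0.722), a prior count of 2 and a minimum of 50 counts over both inputs. Polysome files were compared with filterByExpr, TMM and edgeR's quasi-likelihood test (Benjamini-Hochberg threshold 0.05). On simulated counts this test called 22.2%, 77.8% and 61.5% of rows changed by a log2 ratio of 1, 2 and 3, and 0.62% of unchanged rows. The simulated spread was the same for all rows and was not taken from these replicates. Nor did the simulation copy the uneven depth outside ribosomal RNA, 931 to 23549 counts in the polysome files. It held only the 241 rows that passed the filter, none of a ribosomal protein, so the shares called do not apply to these genes. The labels do not state whether replicates were separate cultures, so p measures only the spread between samples. Named genes were the 8 highest and 8 lowest members with at least 200 counts, members under 50 counts and a panel by role; other rows named, such as Rpl4, Rpl6 and those with opposite -ps rows, were chosen after their values were seen. Some genes that the rule names are not reported here; they stay in counts, sums and medians. Members and lists were chosen with earlier results of these data known. RefSeq windows (250 bases before and 50 after a start) were matched by symbol; all 77 members had an entry in the RefSeq gene table. The windows are of GRCh38.p14 while the notes name hg19, and no count was placed by coordinate. Alternatives were other scalings, count minimums and prior, DESeq2 1.42.0, a replicate block, other fractions and leaving out each replicate; sums with -ps rows and a loess on promoter GC were added after the data were seen.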

Additional observations from a re-analysis of the deposited data

How the results depend on the processing

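Scaling by total gene-row counts shifted all rows by 0.93 at the median and took the medians of all members, small and large subunit genes to 1.30, 1.28 and 1.35, each still above the shifted median of 0.95. Under it Rps15 (0.71), Rps21 (0.47) and Rpl28 (0.46), and Rplp2 (0.87), Rpl3 (0.66) and Rpl31 (0.63), whose intervals had reached 0, turned positive but stayed below that median. The small minus large difference of medians turned to 0.044 with a minimum of 1 count and to 0.050 as residuals from promoter GC; the cause was not tested. TMM was also run without CT010467.1 and mitochondrial, ribosomal RNA and small RNA rows. That, RLE factors, a prior count of 0.5, a minimum of 200 counts and sums with -ps rows changed no direction of the 3 medians. Above the median of all rows stood 37 of 48 members (GC residuals), 42 of 54 (200 counts), 50 of 74 (1 count) and 54 of 70 (-ps sums). No input library could be left out, since each treatment has 1.

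Ribosomal protein rows called in the polysome files stayed at 0 under every alternative run, including a replicate block (0) and leaving out each replicate (0 to 0). None was tested except without the filter and by DESeq2, where 45 were. The count over all rows moved from 9 to 4 with the block, to 18, 23 and 27 in the 40S, 60S and 80S files, to 3, 39 and 4 without salubrinal replicate 1, 2 or 3, to 0, 5 and 0 without control replicate 1, 2 or 3 (at both zeros, unadjusted p was under 0.05 in 22 and 28 rows), and to 0 without the filter (153 such rows) or with DESeq2 (57). Same-numbered polysome files had correlations of deviations of 0.016, 0.35 and 0.42. Files of unlike number were not correlated, so these values cannot settle whether the numbers pair the samples. The main test left them unpaired, and the replicate block is the alternative that pairs them. Depth limits the 16 members under 50 counts and all fraction values.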
